A study of Mus musculus with 9 samples.

Results

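The genes described here are 10 cardiac muscle genes whose transcripts were counted in whole mouse lung: *Myh6*, *Myl4*, *Myl7*, *Ttn*, *Myoz2*, *Mybphl*, *Sln*, *Dhrs7c*, *Nppa* and *Nppb*. They were taken by symbol, 10 of the 21983 genes in the count table, and all 10 were among the 14739 genes tested. The genes were chosen by their counts in these same 9 libraries, because they were lower in asthma than in control lungs or higher in BSYQF than in asthma lungs. Their values in those contrasts are therefore descriptions, and counts of calls among them follow from the choice. Their BSYQF to control values, the sum of those contrasts, are descriptions as well.

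RNA-seq was made from lungs of BALB/c mice in 3 groups of 3 libraries. The BSYQF group had chronic asthma and received Bu-Shen-Yi-Qi formula, a herbal preparation, by mouth from day 14 at a dose equal to 20 g of raw herbs per kg body weight, for 6 weeks by its label. The asthma group had the same disease model and was given saline by mouth from day 14, and the control group was made up of normal mice given the same saline, although the treatment label calls both untreated. The labels do not give the agent that induced asthma, nor the age or sex of the mice. The libraries are numbered 1 to 3 in each group without a statement that each is another mouse, so the p-values reflect spread between libraries that may be technical.

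In the mouse, a sleeve of heart muscle runs from the left atrium along the pulmonary veins and into the lung, so lung RNA normally holds transcripts of the contractile apparatus of the heart. Atrial muscle is known for its own myosin light chains, encoded by *Myl4* and *Myl7*, for sarcolipin, encoded by *Sln*, and for atrial natriuretic peptide, encoded by *Nppa*. The natriuretic peptides are secreted hormones that lower blood pressure and relax vessels through receptors that make cyclic GMP. Muscle of the pulmonary veins and atrial tissue left attached to a lung share these markers and cannot be told apart here, so the genes are called cardiac muscle genes below. In a whole lung, fewer cardiac muscle cells and less RNA per cell cannot be told apart either.

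The libraries held 16286385 to 22819199 counts, and levels are given as CPM, counts scaled to the TMM-adjusted size of each library, in which 3 counts corresponded to 0.134 to 0.202 CPM. Asthma 2 stood apart from the other libraries: the mitochondrial transcript mt-Co1 stood at 48536 CPM there, against 9033 to 29672 CPM elsewhere, and its 10 most abundant genes took 17.1% of its counts, against 7.53% to 13.7%. Without asthma 2 the median log2 fold change of the 10 genes was -2.36 between asthma and control and 2.41 between BSYQF and asthma, against -2.44 and 2.58 with it.

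Promoter sequence was available for 8 of the 10 genes as the 250 bases before the RefSeq start (GRCm38.p6). *Nppa* is shown because it varied most between libraries, *Myl7* because it stayed closest to the median of the 10 genes, *Ttn* because it holds a MEF2 site, and a stretch of *Nppb* because its RefSeq start lies 14.8 kb from that of *Nppa* and the stretch holds 2 GATA hexamers. The stretch lies 100 to 71 bases before the RefSeq start of *Nppb*, but just inside the gene as GENCODE places it, from 147985788. Capitals mark TATAAA as the TATA box, the hexamers bound by GATA factors (AGATAA and also AGATAG, or with T first TGATAA and also TGATAG), the NKX2-5 motif (TNAAGTG), the MEF2 site and the CArG box bound by serum response factor, each searched on both strands and read 5′ to 3′ on the strand of the gene.
Nppa, chr4:148000472-148000721, plus strand: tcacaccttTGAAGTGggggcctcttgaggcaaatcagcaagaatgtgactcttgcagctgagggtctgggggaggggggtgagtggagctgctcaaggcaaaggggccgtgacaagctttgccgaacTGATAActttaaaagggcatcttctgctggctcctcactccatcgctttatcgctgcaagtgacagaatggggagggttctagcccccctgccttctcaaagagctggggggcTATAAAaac
Myl7, chr11:5898783-5899032, minus strand: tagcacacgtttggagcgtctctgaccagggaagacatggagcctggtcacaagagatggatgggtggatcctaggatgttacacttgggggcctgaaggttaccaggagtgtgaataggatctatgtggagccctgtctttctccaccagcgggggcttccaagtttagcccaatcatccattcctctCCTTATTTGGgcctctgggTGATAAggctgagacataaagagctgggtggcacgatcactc
Ttn, chr2:76982548-76982797, minus strand: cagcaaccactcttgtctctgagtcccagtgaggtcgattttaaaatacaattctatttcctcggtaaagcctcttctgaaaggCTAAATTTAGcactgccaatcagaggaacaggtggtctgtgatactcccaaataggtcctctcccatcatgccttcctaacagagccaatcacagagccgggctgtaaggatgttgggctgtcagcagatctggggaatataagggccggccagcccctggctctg
Nppb, chr4:147985800-147985829, plus strand: gcagcTGATAAatcagAGATAAccccaccc
A GATA hexamer lay in 6 of the 8 windows, at 122 bases before the start of *Nppa* and 42 bases before that of *Myl7*, and in 26.5% of 32851 windows of the same length. TATAAA was present in 2 of the 8, *Nppa* at 9 bases and *Nppb* at 31 bases before the start, and in 12.4% of all windows. It was searched by its letters, at any distance from the start. The MEF2 site lay in 2 of the 8, *Ttn* at 166 bases and *Myoz2* at 33 bases before the start, against 1.69% of all windows. The CArG box was present in 1, *Myl7* at 61 bases, against 1.47%, and TNAAGTG in 1, *Nppa* at 241 bases, against 10.1%. An E-box, CANNTG, which is not capitalised, was in 6 of the 8 and in 66.2% of all windows, and in *Nppb* it overlaps the first GATA hexamer. These matches describe letters only, and binding of any factor was not measured.

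All 10 genes were lower in each of the 3 asthma libraries than in any control library, and higher in each of the 3 BSYQF libraries than in any asthma library. BSYQF and control libraries overlapped for every one of them. The 10 genes together summed to 312, 442 and 1156 CPM in BSYQF lungs, to 57.4, 71.5 and 130.1 CPM in asthma lungs and to 392, 337 and 766 CPM in control lungs.

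**Figure D1:**
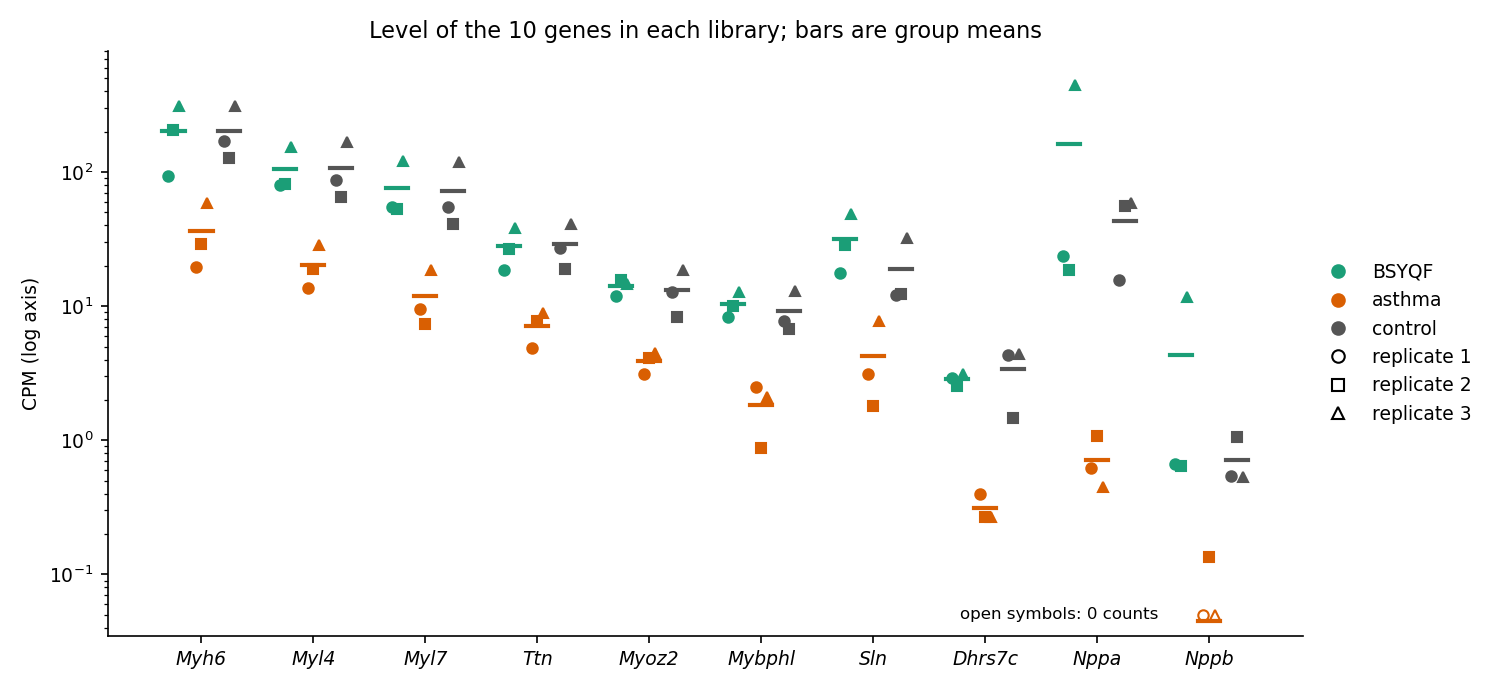
Level of each gene in CPM on a log axis, 1 symbol per library, for BSYQF, asthma and control from left to right, with bars at the group means (n = 3). All asthma symbols lie below the control and BSYQF symbols of the same gene. Open symbols are the 2 asthma libraries with 0 counts of Nppb, drawn near the bottom because a log axis has no 0.

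The motor proteins of the sarcomere come first. *Myh6* encodes the alpha myosin heavy chain, the fast cardiac motor protein (chromosome 14, 54941921 to 54966927, minus strand, GRCm38). It had 93.9, 205 and 311 CPM in BSYQF lungs, 19.7, 29.2 and 59.2 CPM in asthma lungs and 169.5, 126 and 312 CPM in control lungs. The highest asthma library was thus below the lowest of the other 6, while BSYQF and control lungs covered nearly the same range. The log2 fold change was 2.50 ± 0.54 (SE) for BSYQF against asthma, -2.49 ± 0.54 for asthma against control and 0.01 ± 0.51 for BSYQF against control.

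*Myl4* encodes the atrial essential light chain of myosin (chromosome 11, 104550663 to 104595753, plus strand). Its level was 79.7, 81.0 and 153 CPM in BSYQF lungs, 13.6, 19.0 and 28.4 CPM in asthma lungs and 87.7, 65.3 and 166 CPM in control lungs. Asthma lungs averaged 20.3 ± 7.49 CPM and control lungs 106 ± 52.9 CPM (SD, n = 3 each), a log2 fold change of -2.38 ± 0.41. BSYQF lungs averaged 104 ± 41.7 CPM, at 2.36 ± 0.41 above asthma and -0.03 ± 0.38 from control. *Myl7*, the atrial regulatory light chain (chromosome 11, 5896637 to 5898782, minus strand), had 54.4, 52.8 and 120.4 CPM in BSYQF lungs, 9.51, 7.33 and 18.6 CPM in asthma lungs and 54.7, 40.9 and 119 CPM in control lungs. In both light chains replicate 3 was the highest library of each group. The log2 fold change of *Myl7* was 2.67 ± 0.52 for BSYQF against asthma, -2.59 ± 0.52 for asthma against control and 0.08 ± 0.48 for BSYQF against control.

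*Ttn* encodes titin, the giant spring that spans from the Z-disc to the middle of the sarcomere (chromosome 2, 76703980 to 76982547, minus strand). It had 18.7, 26.4 and 38.5 CPM in BSYQF lungs, 4.87, 7.73 and 8.83 CPM in asthma lungs and 27.3, 18.9 and 41.0 CPM in control lungs. *Myoz2*, calsarcin-1, ties the Z-disc to the phosphatase calcineurin (chromosome 3, 123006206 to 123035015, minus strand), and had 12.0, 15.7 and 14.5 CPM in BSYQF lungs, 3.11, 4.10 and 4.44 CPM in asthma lungs and 12.6, 8.25 and 18.6 CPM in control lungs. Both structural genes had smaller log2 fold changes than the motor genes, a difference that was not tested. For asthma against control the log2 fold change was -2.02 ± 0.35 for *Ttn* and -1.76 ± 0.30 for *Myoz2*, the smallest of the 10. For BSYQF against asthma it was 1.96 ± 0.35 for *Ttn* and 1.86 ± 0.30 for *Myoz2*.

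*Mybphl* encodes a myosin-binding protein of atrial muscle (chromosome 3, 108364911 to 108380057, plus strand). It had 8.36, 9.93 and 12.6 CPM in BSYQF lungs, 2.49, 0.874 and 2.11 CPM in asthma lungs and 7.73, 6.73 and 12.9 CPM in control lungs. Asthma 2 was its lowest library, with 13 counts. The log2 fold change was 2.48 ± 0.40 for BSYQF against asthma, -2.30 ± 0.40 for asthma against control and 0.18 ± 0.36 for BSYQF against control.

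The calcium store of the muscle cell was represented by *Sln* and *Dhrs7c*. *Sln* encodes sarcolipin, a small inhibitor of the pump that returns calcium to the sarcoplasmic reticulum (chromosome 9, 53850164 to 53854560, plus strand). Its level was 17.7, 28.8 and 48.6 CPM in BSYQF lungs, 3.11, 1.82 and 7.80 CPM in asthma lungs and 12.2, 12.3 and 32.3 CPM in control lungs. *Sln* was the only one of the 8 genes outside the natriuretic peptides whose BSYQF to control log2 fold change was larger than its SE, at 0.74 ± 0.55, and the ranges of these groups overlapped. It stood at 2.87 ± 0.60 for BSYQF against asthma and -2.13 ± 0.59 for asthma against control.

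*Dhrs7c* encodes a dehydrogenase of the sarcoplasmic reticulum of striated muscle (chromosome 11, 67798187 to 67816002, plus strand). It had 2.91, 2.56 and 3.12 CPM in BSYQF lungs, 0.396, 0.269 and 0.269 CPM in asthma lungs and 4.32, 1.46 and 4.36 CPM in control lungs. The asthma values rest on 7, 4 and 6 counts. The log2 fold change was 3.17 ± 0.53 for BSYQF against asthma, -3.42 ± 0.53 for asthma against control and -0.24 ± 0.44 for BSYQF against control, the largest change between asthma and control outside the natriuretic peptides.

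The hormone genes differed from the muscle genes in how far they moved and in how unevenly. *Nppa*, atrial natriuretic peptide (chromosome 4, 148000722 to 148002079, plus strand), had 389, 318 and 8501 counts in BSYQF lungs, 11, 16 and 10 counts in asthma lungs and 288, 948 and 1107 counts in control lungs. In CPM these were 23.6, 18.5 and 442 in BSYQF lungs, 0.623, 1.08 and 0.448 in asthma lungs and 15.6, 55.5 and 58.9 in control lungs. BSYQF 3 alone held most of the *Nppa* counts of its group. The log2 fold change was 7.86 ± 1.57 for BSYQF against asthma, -5.96 ± 1.50 for asthma against control and 1.90 ± 1.10 for BSYQF against control. Without BSYQF 3 it was 4.92 against asthma, and against control it turned to -1.04.

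*Nppb*, the brain natriuretic peptide gene (chromosome 4, 147985788 to 147987205, plus strand), had 11, 11 and 223 counts in BSYQF lungs, 0, 2 and 0 counts in asthma lungs and 10, 18 and 10 counts in control lungs. BSYQF 3 was again far above every other library, at 11.6 CPM, against 0.639 and 0.666 CPM in the other BSYQF libraries and 0.532 to 1.05 CPM in control lungs. Asthma lungs together held 2 counts and control lungs 38, a depth-adjusted ratio of 0.0522 (95% exact interval 0.0061 to 0.202), and BSYQF lungs held 245 counts, 223 of them in BSYQF 3, which is 127 times the asthma lungs (34.8 to 1054). These intervals cover counting error only. The log2 fold change of *Nppb* between BSYQF and asthma was 6.61 ± 1.51, and 3.88 without BSYQF 3. Asthma 2 held both asthma counts, so without it the fitted fold against asthma is set by the prior count and is not given. Without BSYQF 3 the log2 fold change between BSYQF and control was -0.11, against 2.60 ± 1.07 with it.

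The counts in the contrasts that chose the genes, asthma against control and BSYQF against asthma, were fixed by that choice and are given only as a description beside the shares of all genes. Between asthma and control, 9 of the 10 genes passed an adjusted p under 0.05 (edgeR, quasi-likelihood test, Benjamini-Hochberg over all genes tested), all but *Nppb*, and all 9 were lower. Of all genes tested, 4.45% were called lower and 8.23% higher. No asthma library overlapped a control library for 10 of 10, against 18.4% of all genes tested that lay wholly lower and 22% wholly higher. Between BSYQF and asthma edgeR called 0 of the 10, beside 0.00678% of all genes, while 10 had an unadjusted p under 0.05, beside 3.79% of all genes higher and 4.15% lower. No overlap between BSYQF and asthma libraries was seen for 10 of 10, against 4.99% of all genes wholly higher and 4.76% wholly lower. DESeq2 called 8 of the 10 higher in BSYQF than in asthma lungs, beside 97 of 14731 genes, and limma voom called 0. The 9 calls between asthma and control became 2 without asthma 1, beside 20 of 14930 genes called lower. They became 4 without asthma 2, beside 42 of 14931 genes. Without control 1, 2 and 3 they became 6, 6 and 5, beside 128 of 14918, 40 of 14941 and 93 of 14927 genes. Without asthma 3 edgeR called 5 of the 10 higher in BSYQF than in asthma lungs, beside 64 of 14941 genes. The BSYQF to control contrast is the sum of the contrasts that chose the genes, so its counts are a description too. Between BSYQF and control edgeR called 0 of the 10, beside 1.67% of all genes (1.63% higher and 0.0407% lower). Of the 10, 1 was higher and 0 lower at an unadjusted p under 0.05, beside 10.1% and 5.7% of all genes, and DESeq2 and limma voom called 0. Libraries of these groups did not overlap for 0 of the 10, beside 13% of all genes wholly higher and 11.8% wholly lower.

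Median log2 fold changes over the 10 genes were 2.58 for BSYQF against asthma, -2.44 for asthma against control and 0.09 for BSYQF against control, beside -0.00, 0.02 and -0.00 over all genes tested. The asthma libraries enter the BSYQF to asthma and the asthma to control comparisons alike, so these values are not independent of each other. Without BSYQF 3 the median was 2.24 against asthma and -0.34 against control, and without control 3 the median between BSYQF and control was 0.49. In the authors' deposited tables, all 10 genes were listed for asthma against control, 8 of 10 for BSYQF against asthma (*Nppa* and *Nppb* were not listed) and 0 of 10 for BSYQF against control, from the same libraries.

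Library by library, the 8 genes outside the natriuretic peptides took a shared course, with a spread around it. Their shared low level in asthma lungs follows from the choice of the genes. Their deviation from the control mean, in log2 CPM, ran from -1.0 to 0.07 in BSYQF 1, from -0.29 to 0.76 in BSYQF 2 and from 0.04 to 1.51 in BSYQF 3. It ran from -3.25 to -1.77 in asthma 1, from -3.17 to -1.58 in asthma 2 and from -3.05 to -1.11 in asthma 3. It ran from -0.48 to 0.49 in control 1, from -1.0 to -0.38 in control 2 and from 0.51 to 0.93 in control 3. All 8 were therefore below their control mean in control 2 and above it in control 3, so the control libraries themselves differed in the level of these genes.

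**Figure D2:**
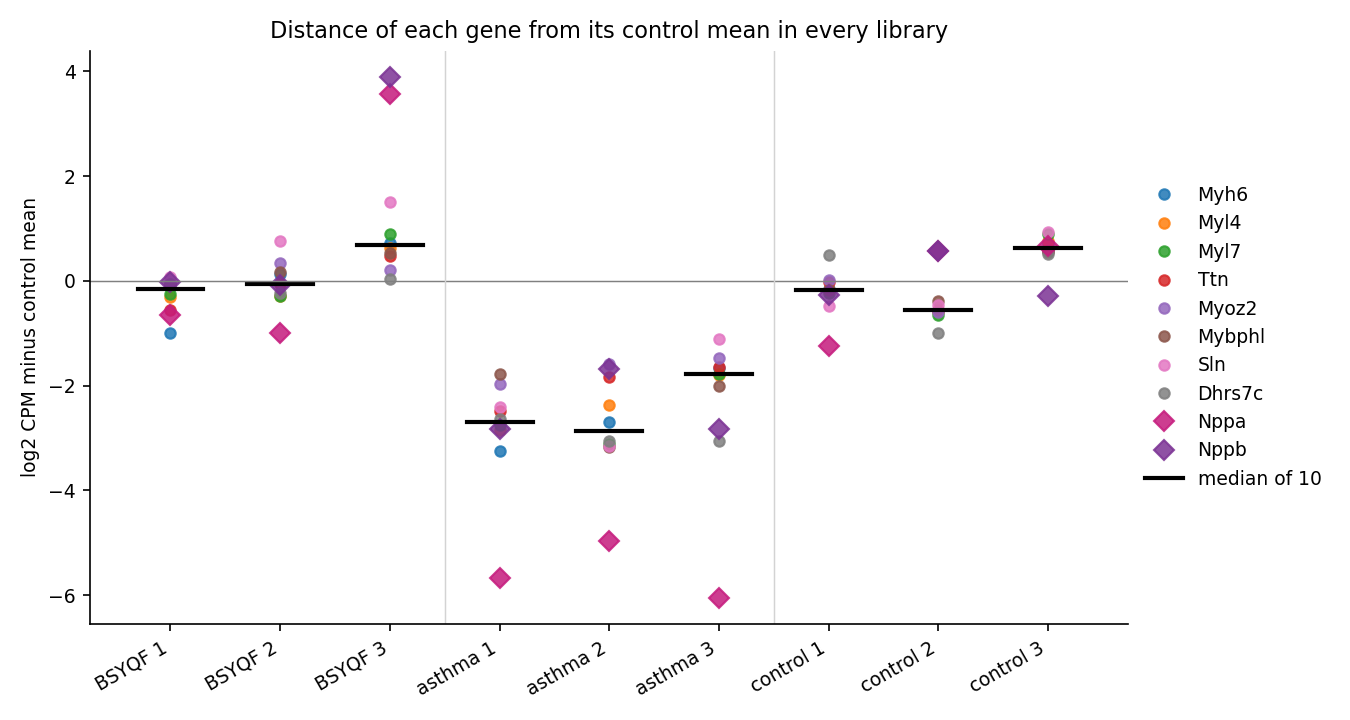
Distance of each gene from its control mean in log2 CPM, 1 column per library, with black bars at the median of the 10 genes. The medians are -0.15, -0.07 and 0.68 in BSYQF 1 to 3, -2.69, -2.87 and -1.79 in asthma 1 to 3 and -0.17, -0.56 and 0.62 in control 1 to 3; Nppa (diamonds) lies far below the median in the asthma libraries and, with Nppb, far above it in BSYQF 3.

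*Nppa* did not keep to that shared course. Over the 9 libraries, the SD of its difference from the median of the 10 genes was 2.14 log2 units, followed by *Nppb* at 1.31. *Dhrs7c* came next at 0.54, and *Myl7*, at 0.18, and *Myl4*, at 0.21, followed the median most closely. In asthma libraries *Nppa* stood at -5.66, -4.97 and -6.05 relative to its control mean, where the 8 muscle genes had medians of -2.56, -2.87 and -1.73. In BSYQF 1 and 2 it stood at -0.65 and -1.0, and in BSYQF 3 at 3.57.

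Ratios of counts within a library, which do not depend on scaling, showed the same split. There were 0.433, 0.350 and 3.68 *Nppa* counts per *Myl7* count in BSYQF lungs, 0.0655, 0.147 and 0.0241 in asthma lungs and 0.285, 1.36 and 0.493 in control lungs. The highest asthma ratio lay below the lowest of the other 6 libraries. The ratio of *Myl7* to *Myl4* was 0.683, 0.652 and 0.789 in BSYQF lungs, 0.697, 0.387 and 0.655 in asthma lungs and 0.624, 0.626 and 0.719 in control lungs. These light chain ratios overlapped between all groups, with asthma 2 the lowest. The ratio of *Sln* to *Myl7* was 0.326, 0.545 and 0.403 in BSYQF lungs, 0.327, 0.248 and 0.419 in asthma lungs and 0.222, 0.302 and 0.271 in control lungs, so the lowest BSYQF library lay above the highest control library. The ratio of *Nppb* to *Nppa* was 0.0283, 0.0346 and 0.0262 in BSYQF lungs and 0.0347, 0.0190 and 0.00903 in control lungs. In asthma lungs it was 0, 0.125 and 0, resting on 2 *Nppb* counts in asthma 2. Its values in BSYQF 1 and 2 rest on 11 *Nppb* counts each.

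**Figure D3:**
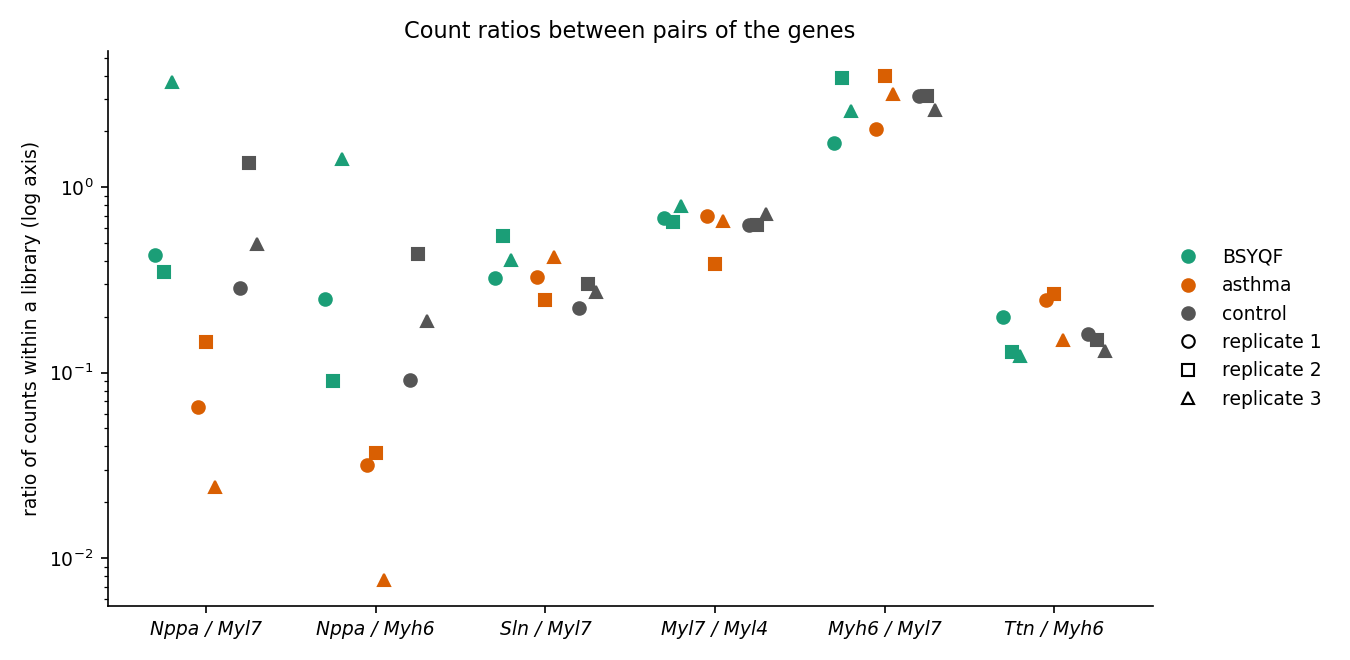
Ratio of counts of a pair of genes within each library, on a log axis, with BSYQF, asthma and control from left to right in each pair. Nppa per Myl7 and Nppa per Myh6 are lowest in the 3 asthma libraries and highest in BSYQF 3, while the ratios between muscle genes overlap between asthma and both other groups.

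Levels were also divided by the length of all annotated exons of a gene joined, which can exceed the length of the transcript made. The order of genes therefore depends on the annotation. *Myl4* was divided by 4.637 kb and *Myl7* by 0.59 kb, although *Myl4* had more counts than *Myl7* in every library. On this scale *Nppa* came first in BSYQF lungs at 187 ± 281 CPM per kb (SD, n = 3), carried by BSYQF 3, followed by *Myl7* at 129 ± 65.3. In asthma lungs *Myl7* came first at 20.0 ± 10.1 CPM per kb, *Myh6* followed at 5.35 ± 3.06, and *Nppa* was in place 7 of 10 at 0.827 ± 0.374. In control lungs the order was *Myl7* at 121 ± 71.0, *Nppa* at 50.1 ± 27.8, *Myh6* at 30.1 ± 14.4, *Myl4* at 22.9 ± 11.4 and *Sln* at 14.4 ± 8.80 CPM per kb. The control ranges of *Myl7* (at least 69.3 CPM per kb) and *Nppa* (at most 68.1 CPM per kb) did not overlap, and the neighbours from *Nppa* to *Sln* lay within an SD of each other. *Ttn*, with the longest exon sequence, was the lowest of the 10 in control lungs at 0.249 ± 0.0956 CPM per kb. *Myl4*, *Nppa*, *Myh6*, *Ttn* and *Mybphl*, 5 of the 10, share exon bases with another annotated transcript, and the strand setting of the counting is not given, so their counts are uncertain to an extent that was not measured. *Myh6* and *Myh7* are close copies whose reads could be split between them.

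Other genes of cardiac muscle, from 5 lists of 68 genes of which 64 were tested, were also lower in asthma than in control lungs. These lists, and the marker lists below, were chosen with earlier results of these data known. Counts of calls among them, in every comparison, are therefore descriptions and not independent support for the genes above. Of the 64, 29 fell, 0 rose and 35 did not pass the test, with a median log2 fold change of -1.13 beside 0.02 over all genes, of which 4.45% were called lower. Among sarcomere and Z-disc genes 9 of 20 fell, including cardiac troponin I, *Tnni3* (8.85 ± 3.86 CPM in asthma and 39.6 ± 18.4 CPM in control lungs, log2 fold change -2.16 ± 0.42, edgeR adjusted p = 0.0148). The small muscle protein gene *Smpx* fell, with a log2 fold change of -2.79 ± 0.50 (edgeR adjusted p = 0.0108), and so did the Z-disc protein gene *Csrp3*, at -2.24 ± 0.48 (edgeR adjusted p = 0.0202). *Cryab*, a chaperone of muscle and other cells and among the most abundant of that list, was at 186 ± 5.73 CPM in asthma and 209.6 ± 4.67 CPM in control lungs and did not pass the test (edgeR adjusted p = 0.385).

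Among calcium handling genes 4 of 12 fell, beside 4.45% of all genes called lower. Sarcalumenin, *Srl*, which binds calcium in the sarcoplasmic reticulum, was at 3.55 ± 0.541 CPM in asthma and 16.1 ± 4.25 CPM in control lungs (log2 fold change -2.18 ± 0.33, edgeR adjusted p = 0.00813). The calcium release channel *Ryr2* had a log2 fold change of -1.94 ± 0.47 (edgeR adjusted p = 0.0305) and cardiac calsequestrin, *Casq2*, of -2.33 ± 0.60 (edgeR adjusted p = 0.0353). The calcium pump *Atp2a2*, which many cell types use, was at 296 ± 17.2 CPM in asthma and 378 ± 60.2 CPM in control lungs and did not pass the test (edgeR adjusted p = 0.209). Of 12 excitability genes 1 fell, *Kcnj3*, a subunit of the potassium channel through which the vagus nerve slows the atria (log2 fold change -3.07 ± 0.66, edgeR adjusted p = 0.0208). Such a count, 1 of 12, is near the share of all genes called lower. The connexin genes *Gja5* and *Gja1*, which vessels and other lung cells also use, did not pass the test.

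Energy supply gave 9 genes of 12 that fell, beside 4.45% of all genes called lower. Myoglobin, *Mb*, had 1.90 ± 0.452 CPM in asthma and 26.1 ± 14.7 CPM in control lungs (log2 fold change -3.79 ± 0.76, edgeR adjusted p = 0.0197). Muscle creatine kinase, *Ckm*, fell too, with a log2 fold change of -2.17 ± 0.36 (edgeR adjusted p = 0.00996), and its mitochondrial form *Ckmt2* had -2.92 ± 0.52 (edgeR adjusted p = 0.0108). Lipoprotein lipase, *Lpl*, the most abundant of that list and also made by macrophages and fat cells, was at 434 ± 93.3 CPM in asthma and 207 ± 104 CPM in control lungs and did not pass the test (edgeR adjusted p = 0.0544). Of 8 cardiac transcription factors tested 6 fell. *Gata4* was at 0.589 ± 0.105 CPM in asthma and 3.26 ± 0.967 CPM in control lungs (log2 fold change -2.44 ± 0.49, edgeR adjusted p = 0.0155). *Tbx3*, *Gata6* and *Tbx5*, which other lung cells express too, also fell, with log2 fold changes of -0.91, -0.78 and -0.58 (edgeR adjusted p = 0.0307, 0.0383 and 0.0412). *Nkx2-5*, *Isl1* and *Shox2* had too few counts to be tested.

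The 29 calls depended on single libraries of the 3 asthma and 3 control lungs. Their number was 1, 5 and 37 without asthma 1, 2 and 3, beside 20, 42 and 2050 of all genes called lower. It was 10, 8 and 5 without control 1, 2 and 3, beside 128, 40 and 93 of all genes. Without BSYQF 2, a library that enters only through the shared estimate of the spread, it was 16, beside 265 of all genes. *Srl* kept its call in all 9 such fits, and limma voom called 17 of the 64.

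Between BSYQF and asthma, edgeR called 0 of these 64 genes. At an unadjusted p under 0.05, 36 were higher and 1 lower in BSYQF, beside 3.79% and 4.15% of all genes tested, and 56 of 64 had a log2 fold change above 0, with a median of 1.11. DESeq2 called 21 higher, beside 97 of 14731 genes, and limma voom 0. Without asthma 3 edgeR called 9 higher, beside 64 of 14941 genes. *Mb* had 9.45, 13.8 and 63.3 CPM in BSYQF lungs and 1.58, 2.42 and 1.70 CPM in asthma lungs. *Tnni3* was at 40.0 ± 14.9 CPM in BSYQF and 8.85 ± 3.86 CPM in asthma lungs (log2 fold change 2.18 ± 0.42, edgeR adjusted p = 0.226). Between BSYQF and control, edgeR called 0 of 64, beside 1.67% of all genes, with a median log2 fold change of -0.10. At an unadjusted p under 0.05, 1 was higher and 7 were lower, beside 10.1% and 5.7% of all genes. DESeq2 called 2 lower and limma voom 0.

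**Figure D4:**
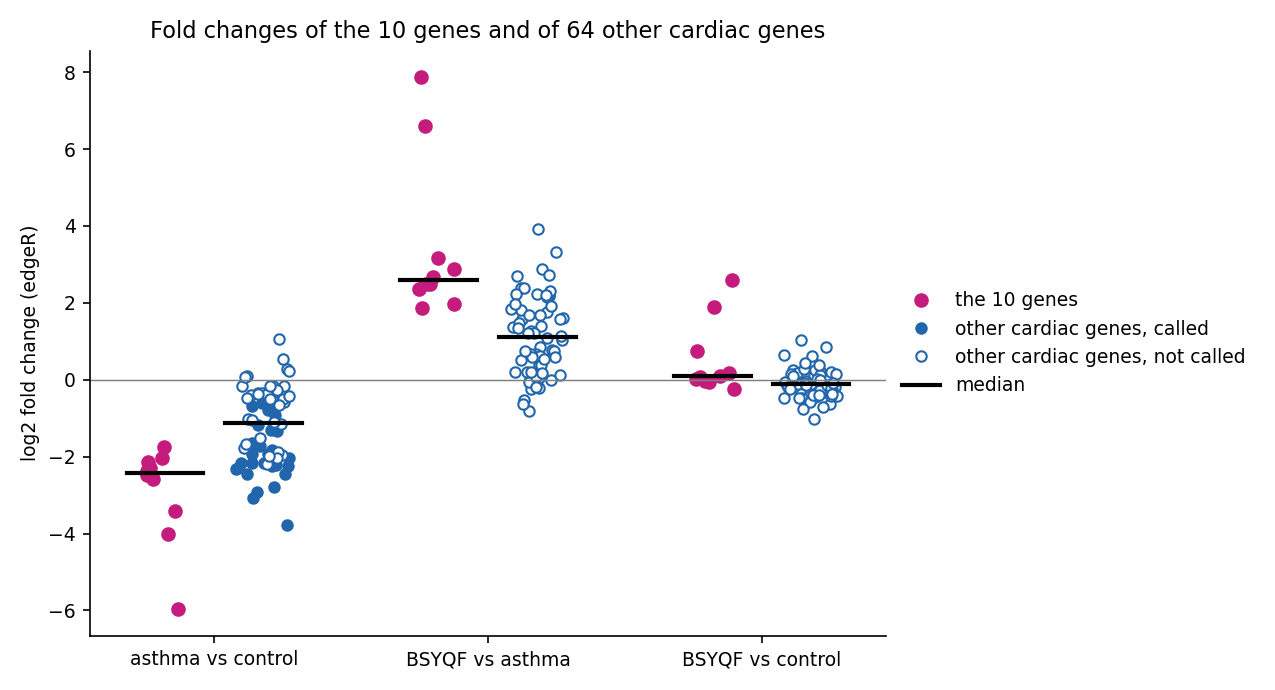
Log2 fold changes of the 10 genes (filled, magenta) and of 64 other cardiac genes (blue; filled where edgeR's adjusted p was under 0.05) in the 3 comparisons, with bars at the medians. The medians are -2.44 and -1.13 for asthma against control, 2.58 and 1.11 for BSYQF against asthma and 0.09 and -0.10 for BSYQF against control.

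Markers of the heart chambers were set beside these genes. *Irx4*, a transcription factor of the ventricle, had 0 counts in all 9 libraries. *Myl2*, the ventricular regulatory light chain, had 89 counts in BSYQF 3 and 0 or 1 count in the other 8 libraries. The ventricular light chain *Myl3* had 0.182, 2.27 and 4.94 CPM in BSYQF lungs, 0.509, 0.807 and 0.583 CPM in asthma lungs and 0.973, 2.28 and 5.53 CPM in control lungs. Of 3 ventricular genes tested (*Myl3*, *Myh7* and *Hey2*), edgeR called 0 between asthma and control. At an unadjusted p under 0.05, 2 were lower, beside 15.1% of all genes. The ventricular genes together summed to 76.3 to 117 CPM in BSYQF, 35.7 to 87.5 CPM in asthma and 82.7 to 113 CPM in control lungs. Most of each sum came from *Myh7* and *Hey2*, since *Irx4*, *Myl2* and *Myl3* were low.

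*Bmp10*, a growth factor made by the right atrium in adult mice, had 423 counts in BSYQF 3, 116 in control 2, 1 in control 1 and 0 in the other 6 libraries. BSYQF 3 was thus the library highest in *Nppa*, *Nppb*, *Bmp10* and *Myl2*, and control 2, with the highest *Nppa* ratio of the control lungs, was the other library with *Bmp10*. The part of chamber tissue in the levels of *Nppa* and *Nppb* was not tested. BSYQF 1 and 2 and control 1 and 3 had at most 1 count of *Bmp10* and of *Myl2*, and in them *Nppa* stood at 23.6, 18.5, 15.6 and 58.9 CPM, above the 0.448 to 1.08 CPM of the asthma lungs. Among other genes of atrial muscle, *Kcnj5* had a log2 fold change of -2.18 ± 0.71 between asthma and control (edgeR adjusted p = 0.0634), *Kcna5* of -2.05 ± 0.91 (edgeR adjusted p = 0.14) and *Nr2f2*, which vein endothelium also uses, of -0.18 ± 0.18 (edgeR adjusted p = 0.513).

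The machinery that cuts, senses and removes natriuretic peptides was measured in the same libraries. *Corin*, the protease that cuts the precursor of atrial natriuretic peptide, had 16.8, 7.79 and 9.06 CPM in BSYQF lungs, 11.7, 13.9 and 6.50 CPM in asthma lungs and 3.73, 2.93 and 4.63 CPM in control lungs. It rose in asthma against control, where *Nppa* was lower, with a log2 fold change of 1.50 ± 0.37 (edgeR adjusted p = 0.0317), a call kept in 4 of 9 fits without 1 library. For BSYQF against control it was 1.57 ± 0.37 and did not pass the test (edgeR adjusted p = 0.0641).

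Of the 8 genes of this list 4 fell between asthma and control, beside 4.45% of all genes. *Npr1*, the receptor of both cardiac peptides, was at 115 ± 17.7 CPM in asthma and 168 ± 11.1 CPM in control lungs (log2 fold change -0.54 ± 0.15, edgeR adjusted p = 0.0399). *Npr2*, the receptor of C-type natriuretic peptide, had a log2 fold change of -0.84 ± 0.19 (edgeR adjusted p = 0.0252), and *Mme*, the peptidase neprilysin that degrades these peptides, of -1.15 ± 0.21 (edgeR adjusted p = 0.0123). *Prkg1*, a cyclic GMP-dependent kinase, had -1.51 ± 0.44 (edgeR adjusted p = 0.0475). The proteases *Furin* and *Pcsk6* and the clearance receptor *Npr3* did not pass the test (edgeR adjusted p = 0.882, 0.263 and 0.67). These 4 receptor and enzyme calls were kept in 3 to 6 of the 9 fits without 1 library. Between BSYQF and asthma edgeR called 0 of the 8, and log2 fold changes lay between -0.42 and 0.47. At an unadjusted p under 0.05 there were 0, beside 3.79% of all genes higher and 4.15% lower. Between BSYQF and control edgeR called 0 of the 8, beside 1.67% of all genes. At an unadjusted p under 0.05, 1 was higher and 4 were lower, beside 10.1% and 5.7% of all genes. Of the 8, 1 lay wholly higher and 5 wholly lower, beside 13% and 11.8% of all genes. DESeq2 called *Corin* higher and *Mme* lower, and limma voom called 0.

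Among the genes outside the 10 whose course over the 9 libraries was most like their mean course were *Smpx*, *Kcnj3*, *Trim63*, *Mylk3*, *Adprhl1*, *Ckm*, *Tnni3*, *Slc17a7* and *Gata4*. Likeness was the root mean square difference in centred log2 CPM, which was 0.363 for *Smpx* and 0.513 for *Gata4*, beside 0.297 for *Myl7*, 1.77 for *Nppa* and a median of 1.44 over all genes. *Trim63*, a ubiquitin ligase of muscle, had 1.57 ± 0.718 CPM in BSYQF, 0.0672 ± 0.0672 CPM in asthma and 1.78 ± 0.724 CPM in control lungs. *Mylk3*, the cardiac myosin light chain kinase, had 9.69 ± 6.48 CPM in BSYQF, 1.88 ± 0.670 CPM in asthma and 13.0 ± 4.82 CPM in control lungs.

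Markers of other tissues that a lung sample can hold moved with the 10 genes in part. The 7 adipocyte genes summed to 68.0 to 344 CPM in BSYQF, 7.02 to 26.0 CPM in asthma and 79.8 to 394 CPM in control lungs. Between asthma and control 5 of 7 fell, beside 4.45% of all genes called lower. *Adipoq*, the fat hormone adiponectin, had 16.7 ± 14.8 CPM in BSYQF, 0.296 ± 0.375 CPM in asthma and 18.6 ± 17.3 CPM in control lungs (asthma against control, edgeR adjusted p = 0.0184), and *Lep*, leptin, had 0 counts in all 3 asthma libraries. By library the adipocyte sums were 68.0, 141 and 344 CPM in BSYQF lungs, 7.02, 8.20 and 26.0 CPM in asthma lungs and 394, 137 and 79.8 CPM in control lungs. Within the BSYQF and the asthma lungs they followed the order of the summed cardiac genes, and within the control lungs they did not, with control 3 highest in the cardiac genes and lowest in the adipocyte genes. The part of attached tissue in the level of the cardiac genes was not tested.

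For the lists that follow, the share of all genes called between asthma and control was 4.45% lower and 8.23% higher. Fast skeletal muscle genes summed to 15.1 to 16.9 CPM in BSYQF, 8.16 to 11.2 CPM in asthma and 13.2 to 23.8 CPM in control lungs. Of 8 tested, 2 fell in asthma against control, *Acta1* (log2 fold change -3.96 ± 0.85, edgeR adjusted p = 0.0204), which heart muscle also expresses, and *Myl1* (-2.35 ± 0.40, edgeR adjusted p = 0.01), and 1 rose, *Pvalb*, which had 0 or 1 count in each control library. Smooth muscle genes, with 1231 to 1647 CPM in BSYQF, 1341 to 1933 CPM in asthma and 1403 to 1812 CPM in control lungs, had 1 of 12 that fell, the myosin light chain kinase *Mylk* (log2 fold change -0.68 ± 0.17, edgeR adjusted p = 0.0355). Endothelial genes had 1 of 12 that fell, *Kdr* (log2 fold change -1.29 ± 0.35, edgeR adjusted p = 0.0394). They summed to 4564 to 4736 CPM in BSYQF, 3162 to 5335 CPM in asthma and 4897 to 6527 CPM in control lungs. With 1 call of 12, neither the smooth muscle nor the endothelial list stood far from the share of all genes. Of 5 mesothelial genes edgeR called 0 between asthma and control. At an unadjusted p under 0.05, 4 were lower and 0 higher, beside 15.1% and 19% of all genes. The mesothelial sums were 332 to 418 CPM in BSYQF, 240 to 400 CPM in asthma and 364 to 574 CPM in control lungs. Of the genes listed for squamous epithelium of oesophagus or trachea, 2 of 4 tested fell in asthma against control, *Krt5* and *Krt15*. Basal cells of the airway in the lung also express these keratins, so their tissue of origin cannot be told apart here. *Krt5* was the only one of all 14739 genes called between BSYQF and asthma (4.86 ± 2.03 CPM in BSYQF and 0.135 ± 0.0908 CPM in asthma lungs, edgeR adjusted p = 0.0431). Erythroid, brown adipocyte and thymocyte lists had 6, 3 and 1 genes tested, of which edgeR called 0 between asthma and control. At an unadjusted p under 0.05 they had 0, 2 (1 higher and 1 lower) and 0, beside 19% of all genes higher and 15.1% lower.

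**Figure D5:**
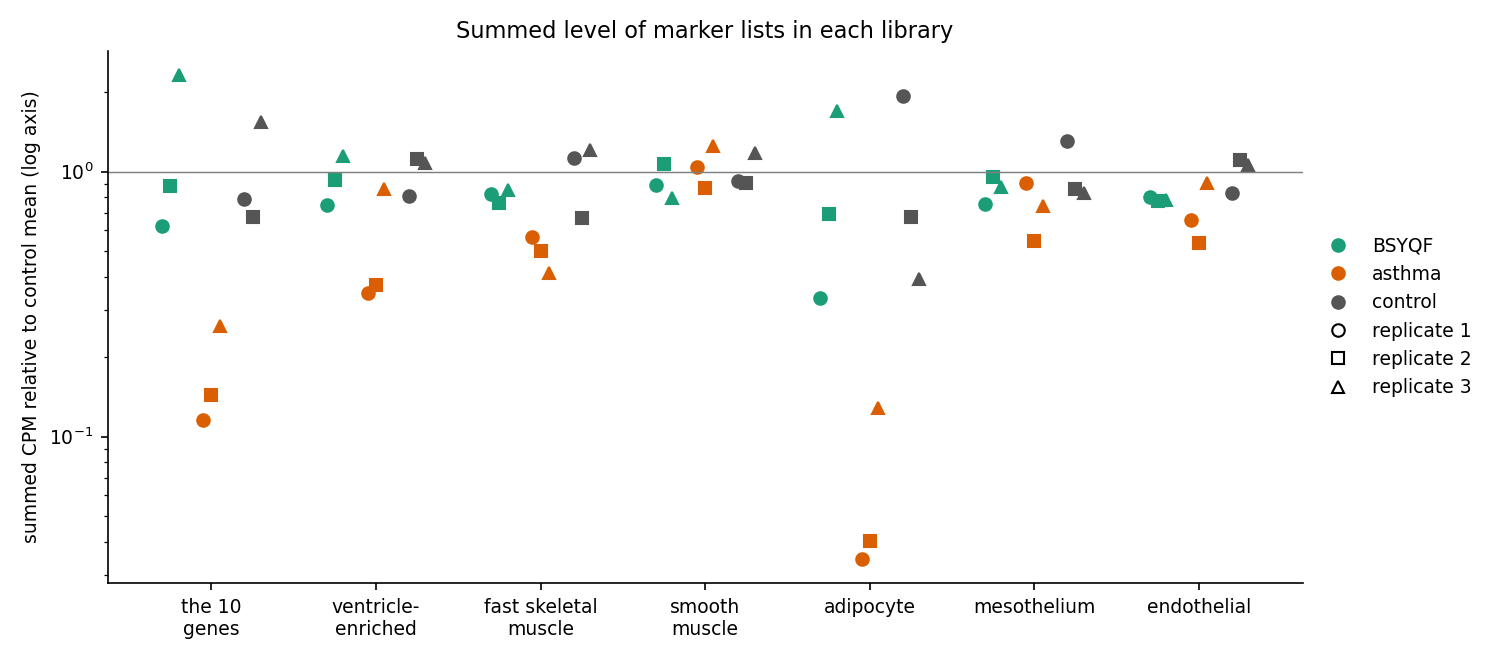
Summed CPM of the 10 genes and of 6 marker lists in each library, divided by the mean of the control libraries, on a log axis with BSYQF, asthma and control from left to right. The 10 genes, the adipocyte genes and the fast skeletal muscle genes lie lowest in the 3 asthma libraries, while the smooth muscle sums of the asthma libraries span those of control.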

How the data were processed

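Lung RNA was prepared with Trizol and NEBNext Ultra kits, per the labels' protocols. FastQC, cutadapt, STAR, HTSeq, DESeq2 and the build mm10 are named in the submitters' processing notes; settings, annotation and the strand of counting were not stated. Counts per gene were deposited by the authors as whole numbers for 9 libraries, not normalized, and every test started from them. They also deposited 3 tables of log2 fold changes and p-values, per the file headers, used here only to see which genes they list; 36 further columns of values per library in them were not used.

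Libraries were grouped by their labels. Genes were filtered with filterByExpr, scaled by TMM (factors 0.914 to 1.07) and tested with edgeR 4.0.16 in R 4.3.3 (quasi-likelihood, robust, 1 model over 9 libraries, common biological coefficient of variation 0.244), with Benjamini-Hochberg adjustment over 14739 genes and calls at an adjusted p under 0.05. SEs are the log2 fold change divided by the root of F. Log2 CPM used a prior count of 2. DESeq2 1.42.0, limma 3.58.1 (voom), other scalings and filters, a replicate block and fits without each library were alternatives. The edgeR step was tested on simulated data with 200 changed genes.

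The 10 genes and the gene lists were chosen with earlier results of these data known. Named genes are the 10, the called genes of a list (up to 4 by smallest p), its 3 most abundant genes, every gene of the ventricular, atrial and natriuretic lists, and the 10 most similar courses. *Nkx2-5*, *Isl1* and *Shox2* were named after their values were seen. Some genes that the rule or the lists hold are not reported here by name. Positions are from GENCODE vM21 (GRCm38), promoters from RefSeq (GRCm38.p6).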

Additional observations from a re-analysis of the deposited data

How the results depend on the processing

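Over 178 values of the 10 genes under the alternatives, asthma against control was below 0 in 178, and BSYQF against asthma was above 0 in 179 of 179. The genes were chosen for these contrasts and the fits reuse the same libraries, so these signs were largely fixed in advance. BSYQF against control was above 0 in 117 and below in 62 of 179, and without BSYQF 3 it turned to -1.04 for *Nppa* and -0.11 for *Nppb* (range over fits without 1 library -1.04 to 2.43 and -0.11 to 3.11); the cause was not tested. The median of the 10 genes between asthma and control was -3.01 to -1.99 in fits without 1 library. All genes called numbered 1869 for asthma against control, 1 for BSYQF against asthma and 246 for BSYQF against control. DESeq2 called 3315, 123 and 826, limma voom 0 for BSYQF against asthma and 90 for BSYQF against control, and fits of only the 2 groups compared 0 and 389; fits without 1 library gave 171 to 4262, 0 to 114 and 9 to 563. Of the 64 other cardiac genes, 29 lower in asthma became 17 with limma voom and 1 to 37 without 1 library. The 0 of them higher in BSYQF than in asthma became 21 with DESeq2 and 0 to 9 without 1 library, and the 0 between BSYQF and control became 2 with DESeq2 and 0 to 1 without 1 library. With replicate number as a block, 15 genes were called between BSYQF and asthma, 5 of them other cardiac genes and 6 of them among the 10, 1469 between asthma and control and 237 between BSYQF and control. The labels do not pair the libraries: same-numbered libraries correlated at -0.26 to 0.34, and 3 of 18 best partners had the same number. Scaling by library size only moved the share of asthma calls that were higher to 56.2%, from 64.9%. A newer edgeR dispersion estimate, chosen after seeing the data, gave 1944, 1 and 269 calls. With at least 1 CPM in 3 libraries required, *Nppb* was not tested. Counts under 20 in asthma libraries limit *Nppa*, *Nppb* and *Dhrs7c*, and also *Mybphl* in asthma 2, with 13 counts.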
